A study of Mus musculus with 6 samples.

Results

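The genes described here are those of the hypoxia response and of glycolysis, measured in the cortex of mouse embryos with a conditional double knock-out of the Hippo kinases Lats1 and Lats2. The set was chosen by name and held 38 genes: 8 subunits and oxygen sensors of the hypoxia-inducible factor HIF, 11 other HIF targets, 4 glucose and lactate transporters and 15 glycolytic enzymes. A gene was measured where the array had a row annotated with its symbol alone, which held for 33 of the 38. Adm lay below the limit for dim genes, so 32 of the 16724 genes tested were members. Ankrd37, Bnip3l and Aldoa had only rows shared with another symbol, and Gpi1 and Eno1 had no annotated row.

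The 3 double knock-out embryos (DKO) carried floxed alleles of both kinase genes together with Nestin-Cre (Lats1F/F;Lats2F/F;Nestin-Cre). They were set against 3 embryos labelled control, whose alleles and Cre status the labels do not give. All 6 cortices were taken untreated at E12.5, each from its own embryo, and each was hybridised to a whole-transcript array. The comparison asked how transcript levels in the cortex differ after conditional deletion of both kinase genes, which normally restrain the coactivators YAP and TAZ. Nestin-Cre acts in neural progenitors and the cells they give rise to, so vessels, blood and meninges in the dissected tissue would keep both kinases.

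HIF is a transcription factor made of an oxygen-labile alpha subunit and the stable partner ARNT. With oxygen present, prolyl hydroxylases of the EGLN family mark the alpha subunit, VHL binds the mark, and the subunit is destroyed. When oxygen is short, HIF accumulates and induces glucose uptake, glycolysis, lactate export and the angiogenic factor VEGFA. The early cortex is a highly glycolytic tissue into which vessels are still growing. Control of HIF is mainly at the level of the protein, which these arrays do not see.

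All levels are log2 values after RMA, a normalization that brings the distributions of the arrays close to each other, in arbitrary units that do not compare between genes. Of the targeted genes, Lats1 averaged 7.79 ± 0.05 in DKO and 8.71 ± 0.33 in control cortex (SD, n = 3 each) and fell by 0.91 ± 0.14 (SE) on the log2 scale (limma adjusted p 0.0189). Lats2 averaged 7.27 ± 0.09 in DKO and 7.03 ± 0.17 in control cortex (limma adjusted p 0.285), so its row shows no loss. Which exons were deleted, and where the probes lie, is not given in the sources used here, and probes outside a deleted part check nothing. The medians of the 6 arrays were 5.94 to 5.97. Precision was limited by there being 3 arrays in each group. Of the cortical markers, Emx1 averaged 7.39 in DKO and 7.69 in control, Pax6 9.63 in DKO and 9.70 in control, and Lhx2 10.73 in DKO and 10.90 in control, all above the dim limit (5.02, the 25th percentile of mean levels, below which no gene was tested). Sox2 (9.955 in DKO and 9.884 in control) and Nes (9.854 in DKO and 9.615 in control) had higher means in DKO.

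The array DKO 2 stood apart from the other DKO arrays in markers of several other cell types, and DKO 1 in those of intermediate progenitors. Their summed signal was 1939 in DKO 1, 2364 in DKO 2 and 2371 in DKO 3. The summed signal of 10 endothelial and pericyte markers was 1418 in DKO 2, against 1969 and 2064 in the other DKO arrays and 2111 to 2338 in the control arrays. For 7 meningeal markers it was 756 in DKO 2, 1786 in DKO 1 and 1234 in DKO 3, and 1154 to 1416 in controls. For 8 hem and choroid plexus markers it was 1822 in DKO 2, 984 and 764 in the other DKO arrays, and 440 to 571 in controls. Ttr, the brightest of them, stood at 10.25 in DKO 2, 8.84 in DKO 1 and 8.33 in DKO 3. Lmx1a was nearly level (5.82, 5.78 and 5.74 in DKO 1, 2 and 3), and Rspo2 was higher in DKO 1 (7.15) than in DKO 2 (6.91). Sums are of values taken off the log scale, in arbitrary units. The results below are therefore also given without DKO 2 where that changes them. DKO 2 was the lowest DKO array for 25 of 32 members, so leaving it out raised the DKO mean of those members by construction.

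One member passed the test over all genes. Egln3, an oxygen-sensing prolyl hydroxylase that is itself induced by HIF, was higher in every DKO array than in every control array. Vegfa, Bnip3, Slc2a3, Slc16a3 and Hk2 had higher means in DKO without passing the test. The 8 tested in the group of other HIF targets, which holds Vegfa and Bnip3, split into 4 higher and 4 lower means in DKO. The lower means had log2 fold changes of -0.22 for Ndrg1, -0.07 for Car9, -0.06 for Kdm3a and -0.03 for Pfkfb4. The median over all genes tested was -0.03. Limma adjusted p values of these 4 genes ran from 0.398 to 0.884, so none was shown to be lower. The HIF subunit genes Hif1a and Arnt showed no call, and most glycolytic enzymes had small differences. A call is a Benjamini-Hochberg adjusted p under 0.05 in limma over all 16724 genes.

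By this test 1 of 32 members rose and 0 fell, while 1.36% of all genes rose and 0.359% fell, 1.72% in either direction. At an unadjusted p under 0.05, 10 members were higher and 3 lower in DKO, against 6.39% and 9.18% of all genes. All 3 DKO arrays lay above all 3 control arrays for 9 of the 32 members (28.1%), compared with 8.22% of all genes. The 9 were Egln3, Vegfa, Bnip3, Pfkfb3, Slc2a3, Slc16a1, Slc16a3, Hk2 and Ldha. The opposite order held for 6 members (18.8%), compared with 13.4% of all genes. These were Epas1, Arnt, Vhl, Kdm3a, Pfkm and Ldhb. The median log2 fold change of the members was 0.08 and that of all genes tested was -0.03.

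**Figure D1:**
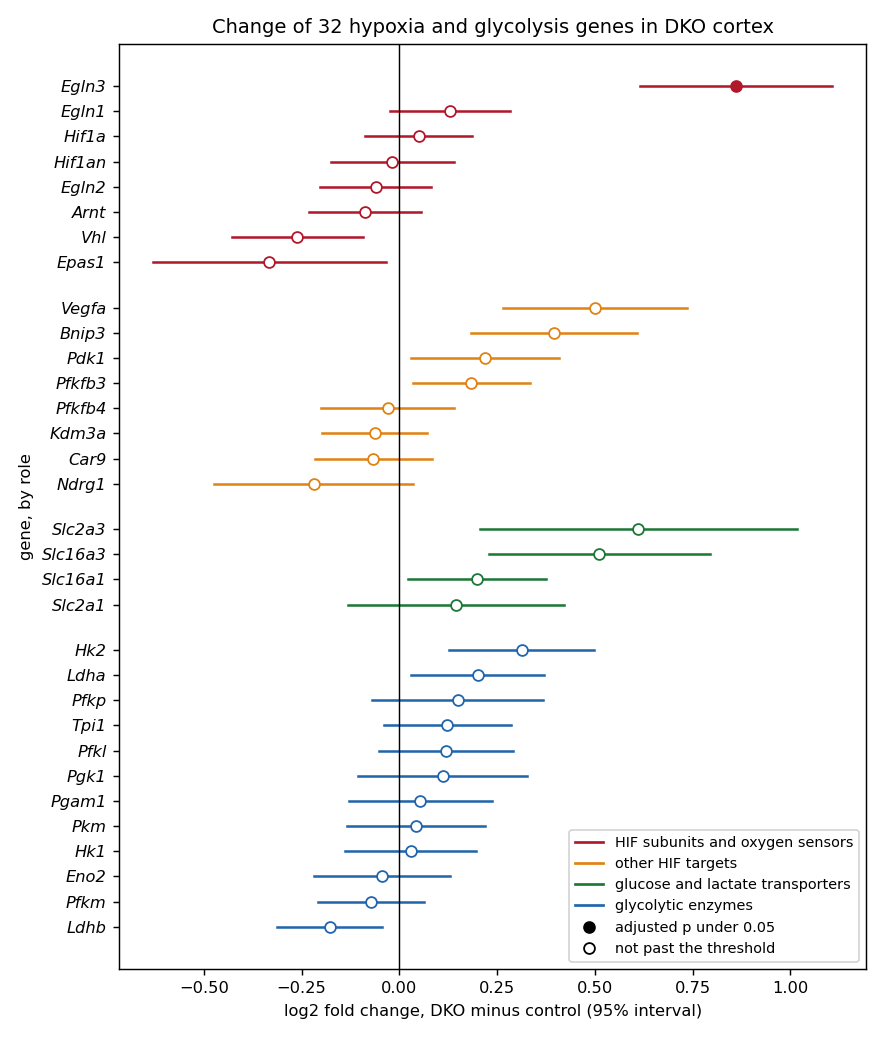
Log2 fold change, DKO minus control, of the 32 tested members (x axis, points with 95% intervals), grouped by role (colours) and sorted within each group. Egln3 at 0.86 is the single filled point, past the adjusted threshold. The 4 transporters all lie above 0, while the enzymes lie between -0.18 and 0.31.

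Because 9 members had DKO arrays wholly above the control arrays, their promoters were searched for the core of the hypoxia response element that HIF binds, ACGTG, on both strands. RefSeq promoter windows (GRCm38.p6, 250 bases before to 50 after the start site, first window listed) matched 34 of the 38 members by symbol and 8 of these 9, of which 7 held the core. Vegfa did not, and Slc2a3 had no window. The core was also in 8 of 21 windows of the other tested members, and in 19.7% of the first windows of 27025 genes. Those 8 were Hif1a, Egln1, Egln2, Car9, Slc2a1, Pfkm, Pgk1 and Pgam1. For Pfkm, whose window held 3 such cores, the DKO arrays lay wholly below the control arrays. Base composition differed as well: the median GC content was 68.5% in the 8 windows, 62.3% in the 21 and 52.7% over all genes. Among windows with at least 60% GC, 13 of 20 member windows (65%) and 26.8% of all windows held ACGTG. That share was not taken for the 8 and the 21 windows apart. The 9 genes were picked by these same array values from a set that holds named HIF targets. The shares are thus a description, and a part of HIF was not tested. For each of the 7 genes 1 stretch from before the start site is shown, 5′ to 3′ on the gene's strand. Capitals mark ACGTG and the related core GCGTG on either strand (read as CACGT and CACGC on the other), and a run CACGTG holds ACGTG on both strands with overlap.
Egln3, chr12:54204079-54204123, minus strand: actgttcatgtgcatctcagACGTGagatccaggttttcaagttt
Bnip3, chr7:138909599-138909643, minus strand: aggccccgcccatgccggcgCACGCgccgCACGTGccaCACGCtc
Pfkfb3, chr2:11553965-11554009, minus strand: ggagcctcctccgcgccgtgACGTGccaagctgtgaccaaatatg
Slc16a1, chr3:104638444-104638488, plus strand: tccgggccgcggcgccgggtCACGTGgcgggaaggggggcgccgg
Slc16a3, chr11:120949020-120949064, plus strand: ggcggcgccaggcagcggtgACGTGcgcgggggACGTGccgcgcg
Hk2, chr6:82774482-82774526, minus strand: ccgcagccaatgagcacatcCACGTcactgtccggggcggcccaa
Ldha, chr7:46845736-46845780, plus strand: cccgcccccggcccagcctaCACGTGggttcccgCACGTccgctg
In this set the Egln3 stretch has its core 229 bases before the start site and the Slc16a3 stretch has its first core 27 bases before it. Either core, ACGTG or GCGTG, was in 25 of 34 member windows (73.5%) and in 43.8% of those of all genes. A match of so few letters is a description of the sequence and not a binding site.

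Among the HIF subunits and oxygen sensors, 1 of 8 rose and 0 fell, compared with 1.36% and 0.359% of all genes. The median log2 fold change was -0.04. Egln3 stood at 8.83, 8.76 and 9.10 in the DKO arrays, against 7.98, 8.20 and 7.92 in the control arrays. The groups were separated by more than the spread within either, with DKO 3 the highest. Egln3 rose by 0.86 ± 0.11 (SE) on the log2 scale, a 1.82-fold higher signal, at a limma adjusted p of 0.00598. The call held in all 15 other settings tried, with log2 fold changes from 0.76 to 0.95.

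The paralogs of Egln3 did not pass. Egln1, the main prolyl hydroxylase acting on HIF in most tissues, stood at 9.04, 8.96 and 9.09 in the DKO arrays and 8.88, 8.84 and 8.98 in the control arrays. The groups overlapped, and its log2 fold change was 0.13 ± 0.07 (SE, limma adjusted p 0.410). Egln2 had a log2 fold change of -0.06 ± 0.06 (SE, limma adjusted p 0.690), and its arrays overlapped between groups. Hif1an, an asparagine hydroxylase that limits the transcriptional activity of HIF, averaged 7.39 in DKO and 7.41 in control, with a log2 fold change of -0.02 ± 0.07 (SE).

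Vhl, which recognises hydroxylated HIF, stood at 7.56, 7.54 and 7.54 in the DKO arrays and at 7.86, 7.68 and 7.90 in the control arrays. The DKO arrays were nearly level and lay below all control arrays. Its difference on the log2 scale was -0.26 ± 0.07 (SE), and the limma adjusted p of 0.137 missed the threshold.

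Hif1a, the alpha subunit expressed in nearly all cells, stood at 9.94, 9.90 and 9.87 in the DKO arrays and 9.90, 9.80 and 9.86 in the control arrays. The groups overlapped, and the 95% interval of its log2 fold change ran from -0.09 to 0.19. A second, dimmer row of Hif1a, close to the dim limit, averaged 5.09 in DKO and 4.96 in control, and there the DKO arrays all lay above the control arrays. Arnt had a log2 fold change of -0.09 ± 0.06 (SE, limma adjusted p 0.562).

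Epas1, the HIF-2 alpha subunit that is prominent in endothelial cells, stood at 7.02, 6.56 and 7.08 in the DKO arrays and 7.29, 7.11 and 7.25 in the control arrays. DKO 2 was the lowest by a wide margin, as it was for the endothelial markers. The log2 fold change was -0.33 ± 0.13 (SE, limma adjusted p 0.269), and it was -0.17 without DKO 2. In the same arrays the means of all 10 markers of endothelium and pericytes were lower in DKO, as were those of 10064 of the 16724 genes tested. Of the 10, 0 were called and 4 had DKO arrays wholly below the control arrays (13.4% of all genes). Their median log2 fold change was -0.31, and their summed signals were 1418 to 2064 in DKO and 2111 to 2338 in control. The part of this shift in the Epas1 value was not tested, and in whole tissue fewer cells of a type cannot be told apart from less RNA per cell.

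The other HIF targets were split in the sign of their mean differences, but none was lower at an unadjusted p under 0.05 in limma. Of 8 tested, 0 rose and 0 fell by the limma test, and the median log2 fold change was 0.08. The means of 4 were higher (50%) and of 4 lower in DKO, while 39.8% of all genes had a higher mean. The 4 with an unadjusted p under 0.05 were all higher in DKO: Vegfa, Bnip3, Pfkfb3 and Pdk1. Of all genes, 6.39% were higher and 9.18% lower at that p.

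Vegfa, which encodes the growth factor that guides vessels into the cortex, stood at 8.78, 8.62 and 8.90 in the DKO arrays, against 8.46, 8.18 and 8.16 in the control arrays. Control 1 was the highest control array and still lay below DKO 2. Its difference on the log2 scale was 0.50 ± 0.10 (SE), a 1.41-fold higher signal, at a limma adjusted p of 0.0572. Other settings took it past the threshold: the adjusted p was 0.0342 with a stricter filter on dim genes, 0.0238 with a trended variance, 0.0432 without DKO 2 and 0.0394 without control 1. It was as high as 0.187 when another array was left out.

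Bnip3, a mitochondrial membrane protein of mitophagy, stood at 7.71, 7.51 and 7.84 in the DKO arrays, against 7.25, 7.39 and 7.24 in the control arrays. The lowest DKO array, DKO 2, lay just above the highest control array. Its log2 fold change was 0.40 ± 0.09 (SE, limma adjusted p 0.0856), and 0.48 ± 0.08 (SE) with an adjusted p of 0.0304 without DKO 2. With another array left out the adjusted p reached 0.260.

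Pfkfb3 and Pfkfb4 make fructose 2,6-bisphosphate, an activator of phosphofructokinase. Pfkfb3 stood at 7.17, 7.07 and 7.01 in the DKO arrays and at 6.92, 6.86 and 6.92 in the control arrays, with a log2 fold change of 0.18 ± 0.07 (SE, limma adjusted p 0.224). The groups did not overlap, although the difference was small. Pfkfb4 had a log2 fold change of -0.03 ± 0.07 (SE). Pdk1, the kinase that shuts pyruvate dehydrogenase, averaged 7.56 ± 0.14 in DKO and 7.34 ± 0.07 in control (SD, n = 3 each), and DKO 2 lay within the control range. Its second row, below the dim limit, had a lower mean in DKO, 3.376 against 3.445 in control.

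Ndrg1, Car9, Kdm3a and Adm showed no increase in the mean. Ndrg1, a stress-responsive gene often used as a hypoxia marker, averaged 7.03 ± 0.07 in DKO and 7.25 ± 0.23 in control (SD, n = 3 each), a log2 fold change of -0.22 ± 0.11 (SE, limma adjusted p 0.398). It was -0.097 without control 3 and -0.331 without control 2. Its second row, below the dim limit, also had a lower mean in DKO, 4.49 against 4.78 in control. Car9, a membrane carbonic anhydrase, stood close to the dim limit at 5.15 in DKO and 5.22 in control. Kdm3a, a histone demethylase, had a log2 fold change of -0.06 ± 0.06 (SE). Adm, which encodes the vasodilator peptide adrenomedullin, averaged 4.63 in DKO and 4.64 in control and was not tested.

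The glucose and lactate transporters all had higher means in DKO. Of the 4, 0 passed the limma test, 3 had DKO arrays wholly above the control arrays (8.22% of all genes) and 3 were higher at an unadjusted p under 0.05 (6.39% of all genes), with a median log2 fold change of 0.36. Slc2a3 encodes GLUT3, the glucose transporter typical of neurons, and Slc16a3 encodes MCT4, the lactate exporter of glycolytic cells.

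Slc2a3 stood at 8.02, 7.28 and 7.63 in the DKO arrays, against 6.85, 7.26 and 6.98 in the control arrays. The DKO arrays were widely spread, and DKO 2 exceeded control 2 by only a small step. The log2 fold change was 0.61 ± 0.18 (SE), a 1.53-fold higher signal, at a limma adjusted p of 0.149. Without DKO 2 it was 0.79 ± 0.15 (SE) with an adjusted p of 0.0456, and with another array left out the adjusted p reached 0.371.

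Slc16a3 stood at 7.61, 7.26 and 7.80 in the DKO arrays, against 7.04, 7.11 and 7.00 in the control arrays. The control arrays were nearly level and the DKO arrays all lay above them. Its difference on the log2 scale was 0.51 ± 0.12 (SE, limma adjusted p 0.0939), and 0.66 ± 0.08 (SE) with an adjusted p of 0.00862 without DKO 2. With another array left out the adjusted p reached 0.251.

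Slc16a1, which encodes MCT1, a lactate and pyruvate transporter also found at the vessel wall, stood at 9.78, 9.58 and 9.69 in the DKO arrays and 9.54, 9.52 and 9.38 in the control arrays. Its log2 fold change was 0.20 ± 0.08 (SE, limma adjusted p 0.266). Slc2a1, which encodes GLUT1, the glucose transporter of progenitors and of brain endothelium, stood at 10.81, 10.35 and 10.77 in the DKO arrays and 10.55, 10.56 and 10.38 in the control arrays. DKO 2 was the lowest of all 6 arrays, and the other DKO arrays were the highest. The log2 fold change was 0.15 ± 0.12 (SE, limma adjusted p 0.625), and without DKO 2 it was 0.29 ± 0.08 (SE) with an adjusted p of 0.149. It was 0.062 without DKO 1, 0.083 without DKO 3 and 0.088 without control 3. Both genes are also expressed by endothelial cells, whose summed marker signal was 1418 to 2064 in DKO and 2111 to 2338 in control. The part of these cells in the 2 values was not tested.

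**Figure D2:**
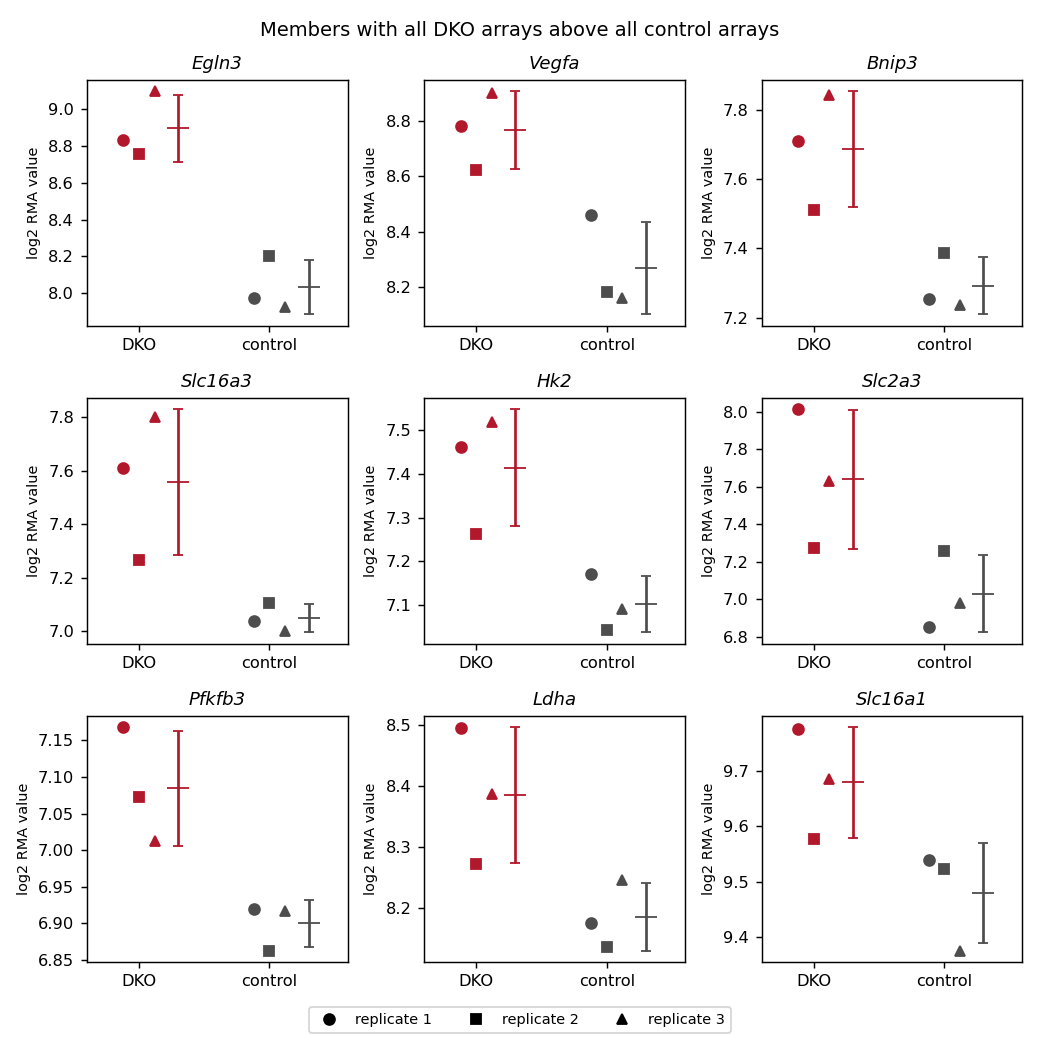
Log2 values (y axis, a separate scale for each panel) of the 9 members whose DKO arrays all lay above the control arrays, with replicate numbers as symbols and mean ± SD beside them (n = 3 each). The gap between groups is widest for Egln3, and DKO 2 (square) is the lowest DKO array in 8 of the 9 panels.

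The glycolytic enzymes had small differences. Of 12 tested, 0 rose and 0 fell by the limma test. At an unadjusted p under 0.05, 2 enzymes were higher (6.39% of all genes) and 1 was lower (9.18% of all genes) in DKO. Their log2 fold changes lay between -0.18 and 0.31 with a median of 0.08, and 9 of 12 means were higher in DKO (75%), compared with 39.8% of all genes. The arrays separated upward for 2 of 12 enzymes (16.7%) and downward for 2 of 12 (16.7%), compared with 8.22% and 13.4% of all genes.

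At the entry of the pathway, hexokinase phosphorylates glucose. Hk2, the inducible isoform, stood at 7.46, 7.26 and 7.52 in the DKO arrays, against 7.17, 7.04 and 7.09 in the control arrays. Its difference on the log2 scale was 0.31 ± 0.08 (SE, limma adjusted p 0.115), and 0.39 ± 0.07 (SE) with an adjusted p of 0.0454 without DKO 2. With another array left out the adjusted p reached 0.271. Hk1, the isoform typical of brain, averaged 6.89 in DKO and 6.86 in control, and its groups overlapped.

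The phosphofructokinase genes, which catalyse the committed step, differed little. Pfkl had a log2 fold change of 0.12 ± 0.07 (SE), Pfkp of 0.15 ± 0.10 (SE) and Pfkm of -0.07 ± 0.06 (SE), with limma adjusted p values of 0.503, 0.514 and 0.617. For Pfkm the DKO arrays lay wholly below the control arrays, by a small margin. The middle and lower part of the pathway showed differences of the same order. Tpi1, the triose phosphate isomerase, was higher in mean by 0.12 ± 0.07 (SE) on the log2 scale, and Pgk1, an ATP-producing kinase of the pathway, by 0.11 ± 0.09 (SE). The Pgk1 difference was 0.21 without DKO 2, 0.041 without DKO 1 and 0.066 without control 3. Pgam1, the phosphoglycerate mutase, averaged 10.01 in DKO and 9.95 in control in its brighter row. Its other row averaged 8.83 in DKO and 8.59 in control, with no overlap between groups, so the rows of this gene disagreed in the size of the difference. Eno2, the neuronal enolase, had a log2 fold change of -0.05 ± 0.08 (SE). Pkm, the pyruvate kinase, differed by 0.04 ± 0.08 (SE), and its 95% interval ran from -0.13 to 0.22.

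The lactate dehydrogenase subunits differed in opposite directions in their means. Ldha, the subunit that favours lactate formation, stood at 8.50, 8.27 and 8.39 in the DKO arrays, against 8.18, 8.14 and 8.25 in the control arrays. Ldhb, the subunit typical of oxidative tissue, stood at 9.31, 9.31 and 9.33 in the DKO arrays, against 9.46, 9.55 and 9.48 in the control arrays. The groups did not overlap for either gene. The log2 fold changes were 0.20 ± 0.07 (SE, limma adjusted p 0.247) for Ldha and -0.18 ± 0.06 (SE, limma adjusted p 0.198) for Ldhb.

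To compare isoforms within an array, the log2 value of 1 gene was subtracted from that of its partner, and the difference was compared between groups. Of 14 listed pairs 11 had both genes measured. For 7 of the 11 the DKO arrays did not overlap the control arrays, and each had p = 0.1 in an exact two-sided permutation test. This is the smallest p that 3 arrays against 3 allow, and it is 0.157 after Benjamini-Hochberg adjustment over the 11 pairs, so no pair could pass. The share without overlap was not taken over random pairs of genes. Over single genes it was 8.22% with DKO above and 13.4% with DKO below. Each of the 7 pairs held a gene whose own arrays did not overlap between groups, and Egln3 was shared between pairs, so the 7 are not separate findings. The change of Egln3 exceeded that of Egln2 by 0.92 ± 0.11 (SE) and that of Egln1 by 0.73 ± 0.14 (SE). The change of Ldha exceeded that of Ldhb by 0.38 ± 0.08 (SE). The change of Slc2a1 minus that of Slc2a3 was -0.47 ± 0.16 (SE), and that of Slc16a1 minus that of Slc16a3 was -0.31 ± 0.13 (SE). The remaining pairs without overlap were Hif1a against Epas1, at 0.38 ± 0.17 (SE), and Pfkfb3 against Pfkfb4, at 0.21 ± 0.11 (SE). Left-out arrays moved 3 of these values by over 1.5 times: Hif1a against Epas1 was 0.22 without DKO 2, Pfkfb3 against Pfkfb4 was 0.11 without DKO 1, and Slc16a1 minus Slc16a3 was -0.19 without DKO 3. Hk2 against Hk1, at 0.28 ± 0.14 (SE), Pfkp against Pfkl and Pfkm, and Pdk1 against Pdk3 overlapped.

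**Figure D3:**
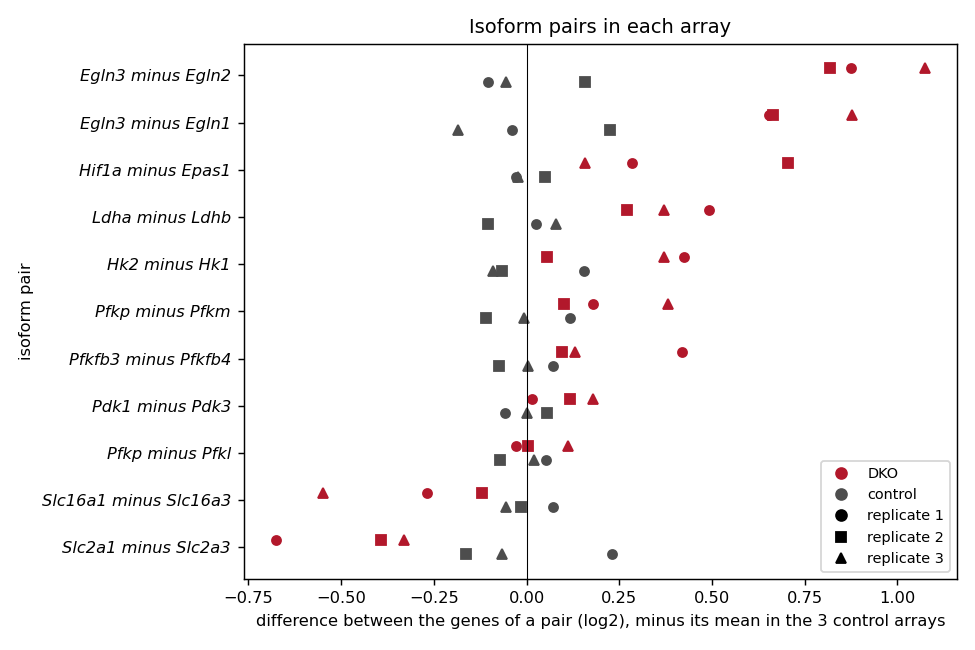
Difference between the log2 values of the genes of 11 isoform pairs in each array, minus its mean in the control arrays (x axis), with DKO points above control points on each line and replicate numbers as symbols. Egln3 pulls away from Egln2 by 0.92 and from Egln1 by 0.73 on average, while the mean changes of Pfkp and Pfkl differ by 0.03.

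The members differed between the DKO arrays, by role group. DKO 2 was the lowest DKO array for 25 of 32 members (78.1%), while it was the lowest for 42.9% of all genes tested. This held for 11 of 12 enzymes, 4 of 4 transporters, 6 of 8 HIF subunits and oxygen sensors and 4 of 8 other HIF targets. The median deviation of the members from their control means was 0.13 in DKO 1, -0.01 in DKO 2 and 0.14 in DKO 3. For the transporters it was 0.44 in DKO 1, 0.16 in DKO 2 and 0.44 in DKO 3. For the other HIF targets it was 0.125 in DKO 1, 0.075 in DKO 2 and 0.047 in DKO 3, so that DKO 3 and not DKO 2 was the lowest. When DKO 2 was left out, 6 members rose by the limma test: Egln3, Slc16a3, Bnip3, Vegfa, Hk2 and Slc2a3. In that fit 1.55% of all genes rose. With another array left out the adjusted p reached 0.260 for Bnip3, 0.251 for Slc16a3, 0.371 for Slc2a3, 0.271 for Hk2 and 0.187 for Vegfa. DKO 2 was also the array with the lowest endothelial (1418), meningeal (756), erythroid (4461) and microglial (445) marker sums and with the highest hem and choroid plexus sum (1822). The part of these cell types in the spread of the members was not tested.

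**Figure D4:**
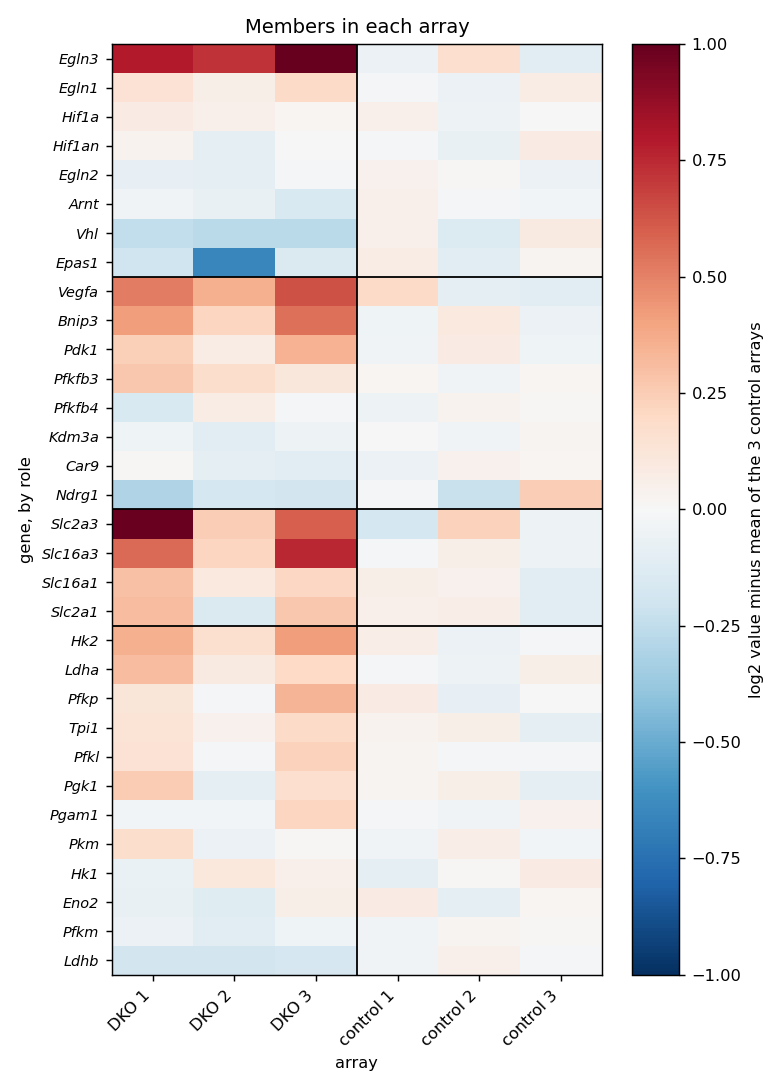
Log2 value of each of the 32 tested members in each array, minus the mean of the 3 control arrays (colour scale cut at -1 and 1), with role groups parted by horizontal lines and DKO parted from control by the vertical line. The DKO 2 column is paler than its neighbours for the transporters and holds the lowest DKO value for 11 of 12 enzymes. Egln3 is high in all 3 DKO columns.

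Markers of several other cell types of the tissue also differed between the groups. The summed signal of 5 intermediate progenitor markers was 1939 to 2371 in DKO and 2768 to 3278 in control. Of the 5, 2 fell (0.359% of all genes). The sum for 8 neuronal markers was 7345 to 8059 in DKO and 8581 to 9455 in control, with 0 calls. For 8 dorsal telencephalon and progenitor markers it was 10344 to 10997 in DKO and 11346 to 11625 in control. By the limma test 1 of these 8 fell, Hes5 (0.359% of all genes). Of the 8, 6 had lower and 2 (Sox2 and Nes) higher means in DKO, so the lower sum did not hold for each marker. Of 7 tested hem and choroid plexus markers 2 rose (1.36% of all genes). The sum for this list was 764 to 1822 in DKO and 440 to 571 in control. Neuronal and progenitor sums were thus lower in every DKO array than in any control array, and hem sums higher. For the dorsal telencephalon and progenitor list this order rests on Hes5, which had the lowest log2 fold change of the 8, -0.90. Without Hes5 the sums of that list overlap between the groups. The sums for erythroid (4461 to 5859 in DKO, 5842 to 6143 in control), microglial (445 to 510 in DKO, 474 to 515 in control), meningeal (756 to 1786 in DKO, 1154 to 1416 in control) and ventral telencephalon markers (537 to 596 in DKO, 582 to 880 in control) overlapped. Among these lists Aif1, Ptprc and Clic6 lay below the dim limit. The part of these shifts in the values of the members was not tested.

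Further genes of the pathway came from 4 lists that do not hold the members. Among 34 tested hypoxia-induced genes 2 rose and 1 fell, compared with 1.36% and 0.359% of all genes. The other 31 did not pass, and the median log2 fold change was -0.0030 (-0.03 over all genes). Car12, a membrane carbonic anhydrase, stood at 7.43, 7.10 and 7.17 in the DKO arrays, against 6.21, 6.40 and 5.98 in the control arrays. It rose by 1.04 ± 0.12 (SE) on the log2 scale, a 2.05-fold higher signal, at a limma adjusted p of 0.00409. Plod2, a lysyl hydroxylase of collagen, stood at 8.54, 8.02 and 8.38 in the DKO arrays, against 7.65, 7.63 and 7.69 in the control arrays. It rose by 0.65 ± 0.12 (SE, limma adjusted p 0.0346). The Plod2 call was lost without DKO 1 (0.0985), DKO 3 (0.119), control 1 (0.126), control 2 (0.0988) or control 3 (0.113).

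Mxi1, a repressor that opposes Myc, averaged 8.18 ± 0.04 in DKO and 8.49 ± 0.06 in control (SD, n = 3 each). It fell by 0.31 ± 0.06 (SE) on the log2 scale (limma adjusted p 0.0477). That call was lost when any single array was left out, with adjusted p from 0.0749 to 0.187, and also with no filter (0.0685), with centred arrays (0.0646), with the replicate number as a block (0.124) and with the mean of its rows (0.144). Gbe1, the glycogen branching enzyme, and Ak4, a mitochondrial adenylate kinase, were named after their values were seen. Gbe1 had a log2 fold change of 0.42 ± 0.08 (SE, limma adjusted p 0.0519), and Ak4 of 0.36 ± 0.07 (SE) with 0.0551. DKO arrays lay above control arrays for 8 of the 34 genes (23.5%) and below for 3 (8.82%), compared with 8.22% and 13.4% of all genes.

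Among 16 tested other glycolysis genes 0 rose and 1 fell, compared with 1.36% and 0.359% of all genes. Their median log2 fold change was -0.05. Aldoc, the brain isoform of aldolase, stood at 9.69, 9.80 and 9.85 in the DKO arrays, against 10.43, 10.43 and 10.74 in the control arrays. It fell by 0.76 ± 0.10 (SE) on the log2 scale (limma adjusted p 0.00632). Galm, the aldose mutarotase, had a log2 fold change of 0.17 ± 0.06 (SE, limma adjusted p 0.219), and Slc2a6, a glucose transporter of the GLUT family, of -0.16 ± 0.06 (SE, limma adjusted p 0.237). Gapdh, often used as a reference gene and chosen after values were seen, averaged 12.83 in DKO and 12.82 in control.

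None of 12 tested VHL complex and HIF partner genes passed the limma test. At an unadjusted p under 0.05, 0 were higher (6.39% of all genes) and 1 was lower (9.18% of all genes). Hif3a, a HIF alpha paralog with inhibitory isoforms, stood at 7.56, 7.41 and 7.61 in the DKO arrays, against 7.98, 7.85 and 7.85 in the control arrays. Its log2 fold change was -0.37 ± 0.08 (SE, limma adjusted p 0.0582). The adjusted p became 0.0325 with the stricter filter, 0.0326 with a trended variance, 0.0412 with repeated quantile normalization and 0.0358 with array weights. With any single array left out it lay between 0.0932 and 0.219, so Hif3a did not pass in those fits. The log2 fold change of Ing4 was -0.14 ± 0.06 (SE), and that of the ubiquitin ligase gene Siah1a 0.15 ± 0.10 (SE).

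Among 21 tested genes of pyruvate entry into mitochondria and the pentose phosphate pathway 0 rose (1.36% of all genes) and 1 fell (0.359%). Their median log2 fold change was -0.0040. Txnip, an arrestin-like protein that restrains glucose uptake, stood at 7.80, 7.73 and 7.89 in the DKO arrays, against 8.39, 8.46 and 8.49 in the control arrays. It fell by 0.64 ± 0.07 (SE) on the log2 scale (limma adjusted p 0.00236). Pgd, an enzyme of the pentose phosphate pathway, had a log2 fold change of 0.19 ± 0.06 (SE, limma adjusted p 0.181), and Mlxip, a glucose-responsive transcription factor that can induce Txnip, of -0.19 ± 0.06 (SE, limma adjusted p 0.221). The calls for Car12, Aldoc and Txnip held in all 15 other settings.

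**Figure D5:**
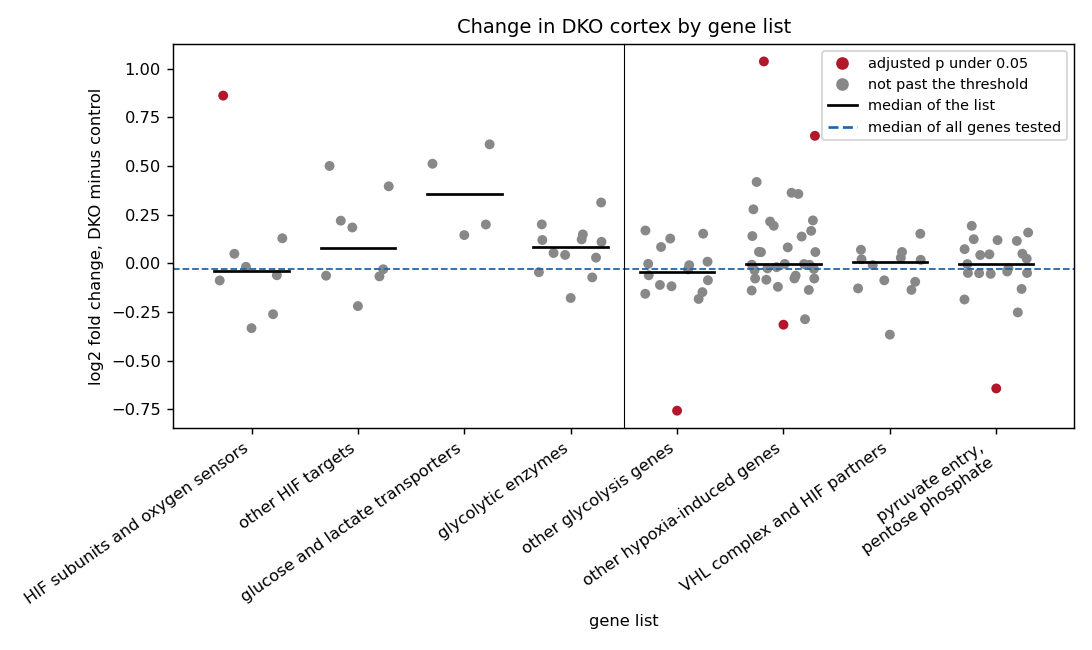
Log2 fold change, DKO minus control, of each tested gene (points) in the 4 role groups of the members (left of the vertical line) and in the 4 further lists (right), with the median of each list as a bar and that of all genes tested (-0.03) as a dashed line. Red points passed the adjusted threshold and grey points did not. The transporters have the highest median, 0.36.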

How the data were processed

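Total RNA of 6 cortices was labelled with biotin and hybridised to Affymetrix whole-transcript arrays, 1 array per embryo. The authors deposited log2 values, for which the submitters' processing notes name RMA. Its version and the build behind the probes are not given in the sources used here. This normalization brings the distributions of the arrays close to each other, so a change of total RNA per cell is not seen, and no detection call was at hand. Of 41345 rows, 23521 carried 1 gene symbol in the platform's annotation, 1814 carried several and 16010 are unnamed here. The row with the highest mean stood for a gene with several. Genes with a mean under the 25th percentile of these rows (5.02) were left out, leaving 16724. DKO was compared with control in limma 3.58.1 (R 4.3.3, lmFit and eBayes, two-sided, no covariate), adjusted over all genes, with 8.44 total degrees of freedom. On simulated data for this comparison (16724 genes, 200 changed in each of 5 draws) 62.6% of changes of 0.5 and 94.2% of changes of 1 on the log2 scale were recovered, with 4.39% false calls. Array correlations lay between 0.978 and 0.994 and no array was doubled. Same-numbered arrays of the groups correlated at -0.10, 0.21 and 0.15 in their deviations. With 3 arrays a group these values cannot show or exclude a shared litter or batch. The labels tie the replicate numbers to neither, so the main fit used no pairing. Members passing the threshold and the 3 smallest p of each role group or further list were described in full. The members, lists and tests were chosen with earlier results of these data known. Alternatives were other filters, scalings, variance models and rows, a replicate block and leaving out each array. The alternatives for isoform pairs and further lists were chosen after the data were seen.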

Additional observations from a re-analysis of the deposited data

How the results depend on the processing

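The 1 member that rose, Egln3, passed in every setting, while the number of members that rose was 2 with the stricter filter on dim genes, with repeated quantile normalization, with arrays centred on the median and with a trended variance (Egln3 and Vegfa each time), and 3 with array weights (Egln3, Bnip3 and Slc16a3). It lay between 1 and 6 when 1 array was left out, and 0 members fell in every setting. With the replicate number as a block Egln3 remained the 1 member that rose, while 176 genes rose and 24 fell over all genes, against 228 and 60 without the block, and it ended the call of Mxi1. The genes that fell numbered 134 with the stricter filter, 162 with a trended variance and 123 with array weights, and leaving out 1 array gave 121 to 260 that rose and 11 to 54 that fell. Of the further pathway genes 2 rose, or 4 with the stricter filter, repeated quantile normalization, centred arrays or a trended variance, and 1 to 4 when 1 array was left out. Isoform pairs without overlap numbered 7, and 7 to 9 when 1 array was left out. Of 44 named genes in 658 alternative values, 619 kept their direction and side of the threshold, 15 lost and 16 gained a call, and 8 changed sign, all of them uncalled values near 0. Hif1an turned to 0.0010 with centred arrays and lay between -0.054 and 0.023 with 1 array left out. Ranges of the same kind were -0.084 to 0.03 for Pfkfb4, -0.014 to 0.077 for Hk1, -0.027 to 0.095 for Pgam1 and -0.025 to 0.096 for Pkm. The cause of these changes was not tested, and neither was the part of the smaller number of arrays or genes in some fits. With 3 arrays a group, changes well under 0.5 on the log2 scale were often not detectable.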
